A study of Homo sapiens with 6 samples.

Results

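The vehicle state of HT-1080 cells, an established human fibrosarcoma line, is described here from the 2 libraries that the titles name as DMSO 1 and DMSO 2, out of 6 libraries in the series. These cells received the solvent DMSO for 48 h, and the other 4 libraries came from the same line given 2 µM palbociclib, an inhibitor of the kinases CDK4 and CDK6, or 500 nM pimasertib, which blocks MEK1 and MEK2, also for 48 h. RNA was sequenced after priming with random hexamers, and reads were counted per gene. The labels number the replicates without saying that they came from separate cultures, so the SD over 2 libraries measures a spread that may be technical. Cells kept without DMSO were not analysed here, so the profile is that of the vehicle and not of cells free of solvent.

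HT-1080 is known for an activating mutation of NRAS, the small GTPase that passes growth factor signals to the kinases RAF, MEK and ERK, and for a mutation of the metabolic enzyme IDH1. The line invades extracellular matrix, spreads as flat or spindle-shaped cells, and is widely used to study ferroptosis, a form of cell death driven by lipid peroxidation. Fibrosarcoma is a tumour of fibroblast-like cells, so genes of matrix, adhesion and the contractile skeleton are its usual markers. Counts per gene carry no base calls, so neither mutation could be read from these tables.

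The libraries held 16753274 and 15051223 counts, and 18219 and 19842 genes with at least 1 read. Protein-coding genes took 98.7% of counts in each. CPM is a gene's share of its library's counts. TPM divides each count by the gene length in the deposited tables and scales every library to the same sum. It is the main scale used below to compare 1 gene with another. Where genes are ranked by CPM or set side by side in counts, gene length is not corrected for. A floor of 3 counts stood at 0.179 CPM in DMSO 1 and 0.199 CPM in DMSO 2, and 1 TPM of a gene of 2000 bases was about 11.2 and 10.7 counts. Over 13035 genes with 10 or more counts in each, the median absolute log2 ratio of DMSO 2 over DMSO 1 in CPM was 0.32, and 784 genes (6.01%) differed by more than 2-fold. With its sign kept, the median log2 ratio was -0.06, so lower in DMSO 2 was the more common direction among all these genes. All values below are from these 2 libraries (n = 2), as mean ± SD or with DMSO 1 given before DMSO 2, and gene positions are on GRCh37 as deposited and span the whole gene. An order of 2 genes is stated only where both libraries of the higher gene lay above both libraries of the lower. In bulk RNA, fewer cells of a type and less RNA per cell cannot be told apart.

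The most abundant transcripts were those of mitochondria, translation, the cytoskeleton and glycolysis. The gene with the highest mean CPM was MT-CO1, a mitochondrially encoded subunit of cytochrome c oxidase, with 109973 and 205597 counts (6564 and 13660 CPM). DMSO 2 was the higher library for MT-CO1, and the libraries lay far apart, with those of EEF1A1 between them. The highest nuclear gene was EEF1A1, which encodes the factor that brings aminoacyl-tRNA to the ribosome, with 135974 and 102038 counts (8116 and 6779 CPM). EEF2, the translocation factor of the ribosome, had 96408 and 62870 counts, and FLNA, an actin crosslinker, 71303 and 64034, and this pair overlapped in CPM. The giant cytoskeletal proteins AHNAK (64256 and 45031 counts), PLEC (58834 and 48358) and MYH9 (52562 and 37985) were also among the 20 highest genes by CPM. AXL, a receptor tyrosine kinase, was the 19th gene of the whole table, with 50229 and 40999 counts. No other receptor tyrosine kinase was among the 20 highest.

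Dividing by length changed which genes led. Only 28 of the 50 highest genes by CPM were among the 50 highest by TPM, and the median gene length fell from 3090 bases in the CPM list to 1517.5 in the TPM list, against 3463 for all protein-coding genes at 1 TPM or more. AHNAK, whose listed length is 18787 bases, was 13th by CPM and 229th by TPM, at 529 ± 113 TPM. Its neighbour by CPM, PLEC, was 175th by TPM at 640 ± 66.2. In the other direction LGALS1, which encodes the sugar-binding protein galectin-1 and has a listed length of 637 bases, was 102nd by CPM and 18th by TPM, at 3845 and 4542 TPM. TMSB10, a small protein that binds actin monomers, moved from 361st to 30th, at 2358 and 2549 TPM. The 12 protein-coding genes with the highest mean TPM were all mitochondrially encoded.

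Among nuclear genes the highest mean TPM was that of ACTB, cytoplasmic beta-actin, at 4984 ± 69.0 TPM. ENO1, an enolase of glycolysis, stood at 4939 ± 929, EEF1A1 at 4874 ± 815, EEF2 at 4571 ± 1207, and ACTG1, gamma-actin, at 4437 ± 697. ACTB lay above ACTG1 in both libraries, and no other pair of these 5 genes was ordered. FTL, the light chain of the iron store ferritin, was nearly the same in both libraries at 4107 and 4124 TPM. RPS2, a protein of the small ribosomal subunit, stood at 3996 ± 246, HSPA8, the constitutive HSP70 chaperone, at 3723 ± 1165, and GAPDH of glycolysis at 3586 ± 265. ENO1 depends on the length used: with merged exon lengths of GENCODE v29 its value was 2934 TPM.

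**Figure D1:**
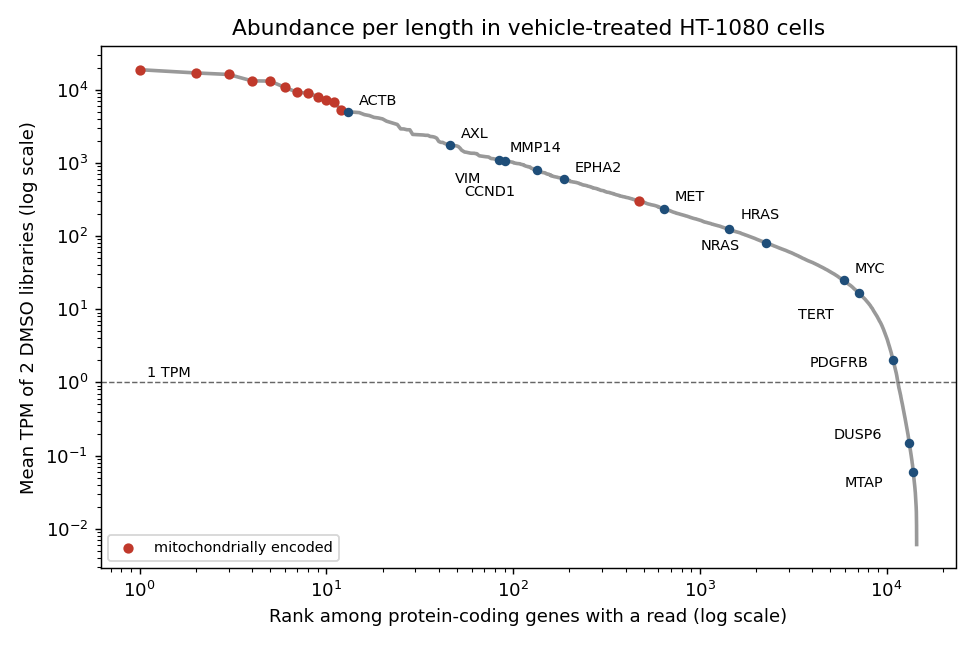
Mean TPM of 2 DMSO libraries (vertical, log scale) against rank among protein-coding genes with a read (horizontal, log scale); red points are mitochondrially encoded genes, blue points are named genes, and the dashed line is 1 TPM. Red points head the curve, ACTB is the first nuclear gene at 4984 TPM, AXL lies at 1753 TPM, and the curve falls steeply below 1 TPM, where DUSP6 and MTAP lie.

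Of 16390 listed protein-coding genes, 11492 (70.1%) had a mean of 1 TPM or more, and 11202 reached it in both libraries. A level of 100 TPM was reached by 1824 genes and 1000 TPM by 100 genes, with a median of 11.1 TPM over all listed protein-coding genes. The 837 highest genes held 50% of the counts of DMSO 1 and the 793 highest those of DMSO 2. The 50 highest genes took 13.6% of counts in DMSO 1 and 15.4% in DMSO 2, and the 50 highest nuclear genes 12.3% and 12.1%. The 13 mitochondrially encoded genes accounted for 3.21% and 5.67% of counts and for 10.1% and 16.9% of summed TPM. The 84 cytosolic ribosomal protein genes held 4.52% and 4.07% of counts, and 63 elongation and initiation factor genes 3.08% and 2.49%. Mitochondrial genes were thus higher in DMSO 2, and these translation families were higher in DMSO 1.

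Few non-coding transcripts were abundant. RN7SL1, the RNA of the signal recognition particle that the tables class as antisense, had 4384 and 4030 counts (2557 ± 62.4 TPM). LINC00657, a long non-coding RNA also known as NORAD, had 7296 and 6479 counts (235 ± 11.5 TPM), and SNHG5, a host of small nucleolar RNAs, 1292 and 1850 (280 ± 79.8 TPM). MTATP6P1 had 7458 and 8988 counts and RPS2P46 3235 and 3457. These pseudogenes have near-identical copies in mitochondrial ATP6 and in RPS2, so the split of reads between copies is uncertain. RNA28S5, a fragment of ribosomal RNA, had 4215 and 1251 counts, a log2 ratio of -1.60.

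Sequences before the listed start of 3 of the leading nuclear genes are shown. Here and below, 1 RefSeq start per gene was used, and whether the abundant transcript of a gene begins there was not examined. Sequences are from RefSeq on GRCh38.p14, cover the 100 bases before the gene's listed start, run 5′ to 3′ on the gene's strand, and carry in capitals every match to TATAAA on that strand, to the CCAAT box on either strand, or to the GC box GGGCGG on either strand. EEF1A1 lies on the minus strand at chr6:73521033-73521132, ENO1 on the minus strand at chr1:8878687-8878786 and GAPDH on the plus strand at chr12:6535164-6535263.
EEF1A1: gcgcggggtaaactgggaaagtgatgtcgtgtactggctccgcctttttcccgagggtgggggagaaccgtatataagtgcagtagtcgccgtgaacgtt
ENO1: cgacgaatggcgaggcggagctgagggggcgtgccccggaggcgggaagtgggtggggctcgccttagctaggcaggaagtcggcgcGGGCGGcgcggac
GAPDH: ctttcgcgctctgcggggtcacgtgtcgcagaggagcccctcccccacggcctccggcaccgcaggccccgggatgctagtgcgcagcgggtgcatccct
ENO1 held 1 match to GGGCGG, and the other sequences held no match in this window. In the 300-base window around the start (250 before, 50 from the start on), EEF1A1 had 24 CpG dinucleotides, ENO1 32 and GAPDH 28. The median was 14 over all 27305 promoters of the table. The matched genes at 1 TPM or more had a median of 27, but only 75.6% of such genes had a promoter. That is too few for a comparison by the limit given below.

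Of the 50 highest nuclear protein-coding genes by TPM, 41 (82.0%) had a promoter in the table. In 19 of these 41 (46.3%) the start was a C followed by 4 bases that were each C or T, the shape of the terminal tract known from genes of the translation machinery, against 4.04% of all promoters. GGGCGG on either strand lay in 80.5% of the 41 and in 44.6% of all promoters, CCAAT on either strand in 43.9% and 35.7%, and TATAAA on the gene's strand, placed from -40 to -15, in 9.76% (4 of 41) and 2.55%. These are matches of letters and not measured binding. At least 80% of a set had to have a promoter for a comparison, and genes at 1 TPM or more (75.6%) and genes without a read (64.1%) fell short, so a comparison with them is void. The matched genes at 1 TPM or more held GGGCGG in 71.2%, CCAAT in 36.9% and the C-led tract in 5.65%, given for description only.

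The fibroblast markers set against the labelled cell type were present in part. Of 30 fibroblast and mesenchymal markers, 21 stood at 1 TPM or more (70.0%, against 70.1% of all listed protein-coding genes), with a median of 20.3 TPM against 11.1 for all. The share and median of the markers count PRRX1, which was not listed, as 0, while both values for all genes cover listed genes only. LGALS1 (ENSG00000100097, chromosome 22, positions 38071615 to 38075813, plus strand) led the list at 4194 ± 493 TPM. VIM, the intermediate filament of mesenchymal cells (ENSG00000026025, chromosome 10, positions 17270258 to 17279592, plus strand), had 1098 and 1025 TPM. CD44, a receptor for hyaluronan, stood at 983 ± 173 TPM (621 with merged exon lengths), and SPARC, a secreted protein that binds collagen, at 681 and 1278. ENG, a TGF-beta co-receptor, was at 164 and 255 TPM, and FN1, fibronectin, at 129 and 261. VIM and CD44 overlapped in their libraries, and all 6 of these genes except VIM were higher in DMSO 2.

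The transcription factors of the mesenchymal state were present at moderate levels. TWIST1 stood at 34.2 and 34.6 TPM and TWIST2 at 33.0 and 33.4. ZEB1 was at 43.4 and 28.1 TPM, SNAI2 at 23.0 and 17.5, and ZEB2 at 17.4 and 14.1. SNAI1 was lower than these, at 2.75 and 4.88 TPM.

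Other defining fibroblast genes were at or near 0. COL1A2, COL3A1, PDGFRA, DCN, LUM and FAP had no read in either library, although each is a staple marker of fibroblasts: chains of fibrillar collagen, a growth factor receptor, matrix proteoglycans and a surface protease. COL1A1 had 30 and 99 counts (0.794 and 2.75 TPM), THY1 had 5 and 0 counts, NT5E 4 and 1, and PRRX1 was not listed in either table. The collagens that were read belonged to other types. COL6A3, a chain of microfibrillar collagen, had 31047 and 36852 counts (578 ± 90.0 TPM), and COL4A2 of basement membranes 8039 and 12138 (295 ± 94.5 TPM). COL13A1, a transmembrane collagen, stood at 154 and 276 TPM, COL4A1 at 90.5 and 153, and COL5A1, a minor fibrillar collagen, at 86.0 and 76.8. Of 40 listed collagen genes, 16 had a mean of 1 TPM or more, against 70.1% of all listed protein-coding genes. Of the 5 highest collagens all but COL5A1 were higher in DMSO 2. Of the 30 mesenchymal markers 6 stood at 100 TPM or more, 6 had no read, PRRX1 was not listed, and the others lay between.

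Markers of other cell types were scattered. Of 20 epithelial markers 5 stood at 1 TPM or more, and 2 of those exceeded 100 TPM: KRT8 at 206 and 186 and its partner KRT18 at 208 and 153. KRT8 fell to 113 TPM with merged exon lengths. CDH1, the epithelial cadherin, and GRHL2, ELF3 and KRT14 had no read, and EPCAM had 3 and 0 counts. Of 15 endothelial markers 3 stood at 1 TPM or more. These were TIE1, an orphan receptor of vessels (98.3 and 156 TPM), ROBO4 (44.1 and 50.4) and EGFL7 (17.5 and 37.6). VWF, EMCN, PLVAP and SOX17 had no read, CDH5 had 5 and 1 counts, and PECAM1 and ERG were not listed.

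Of 19 leukocyte markers 5 stood at 1 TPM or more, led by LCP1, an actin-bundling protein, at 223 and 151 TPM, and HCLS1 at 60.4 and 53.7. Among the leukocyte-defining genes, PTPRC, SPI1, CD3E, MS4A1, CD79A and ITGAM had no read. Of 17 bone and cartilage markers 4 stood at 1 TPM or more, among them SOX9, the chondrocyte transcription factor (140 and 138 TPM), SPP1, osteopontin (44.8 and 88.1), and RUNX2 (10.2 and 10.4). In the same list ALPL, SP7, ACAN, COL10A1 and MATN3 had no read, BGLAP had 0 and 4 counts, and COL11A1 had 0 and 2. Of 12 smooth muscle markers 7 stood at 1 TPM or more, with TPM2 at 401 and 328 TPM and SMTN at 201 and 144, while ACTA2, smooth muscle actin, was at 8.62 and 6.18 TPM, and MYH11 at 0.720 and 0.649.

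In each of the remaining cell type lists at most 4 members stood at 1 TPM or more. TNNT1, slow skeletal troponin T, held 92.2% of the summed TPM of its list, at 49.7 and 53.9 TPM, while DES and CKM had no read and MYOD1, MYOG, MYF5, MYF6, PAX3 and PAX7 were not listed. NCAM1, a neural adhesion molecule, held 89.5% of the neural and glial list at 57.8 and 68.3 TPM, with a mean of 39.8 by merged exon lengths. LIN28B, a binder of let-7 precursors, was the only one of 12 pluripotency and germ cell markers at 1 TPM or more (5.40 and 4.25). FOXA2 and FOXA1, pioneer factors of endoderm, were at 7.72 and 8.34 and at 6.59 and 7.65 TPM, with HNF4A and APOB unread. MITF led the melanocyte list at 5.81 and 3.77 TPM, and DGAT2 the adipocyte list at 2.16 and 2.21. The shares of members at 1 TPM or more were 70.0% for the mesenchymal list, 58.3% for the smooth muscle list and 37.5% or less for the other cell type lists. These shares count members not listed as below 1 TPM. The 70.1% of all protein-coding genes covers listed genes only, so it is not a like measure.

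**Figure D2:**
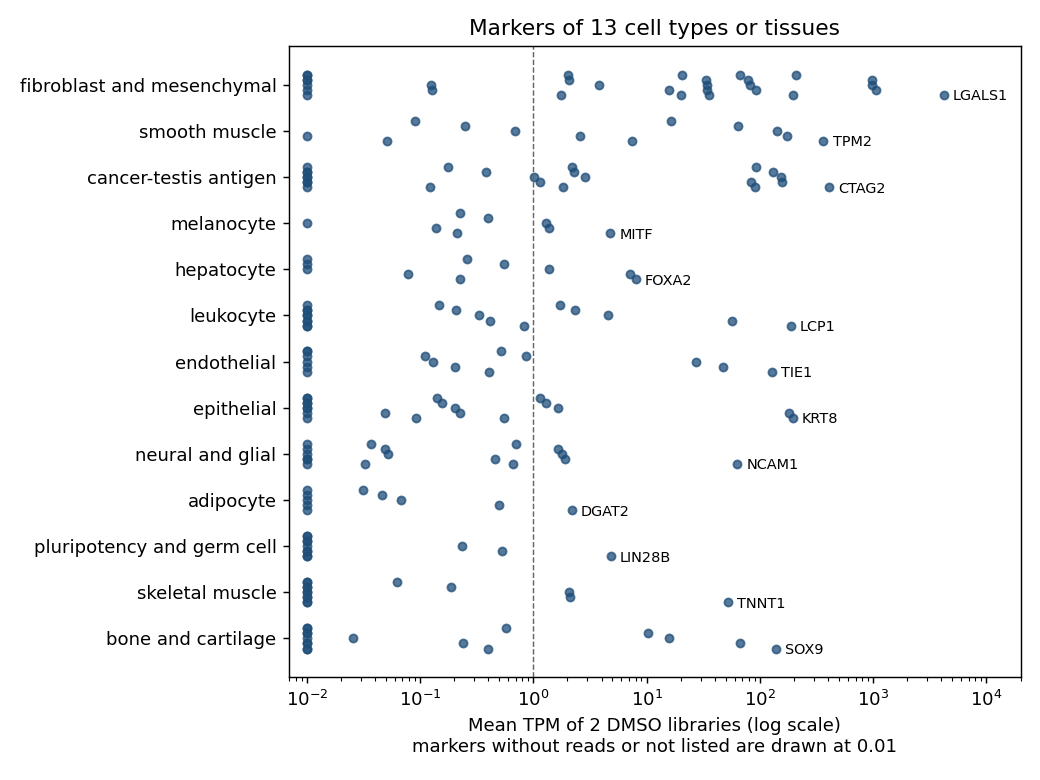
Each point is a marker, placed by its mean TPM over 2 DMSO libraries (horizontal, log scale) in the row of its cell type or tissue; the highest marker of each row is named, the dashed line is 1 TPM, and markers without reads or not listed are drawn at 0.01. The mesenchymal row reaches furthest right with LGALS1 at 4194 TPM but also has points at the left edge, and most other rows hold 1 to 5 markers above 1 TPM.

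Cancer-testis antigens, proteins normally confined to germ cells and re-expressed in tumours, were read in part. Of 24 such genes 16 were listed and 13 stood at 1 TPM or more, and 7 had a mean above 80 TPM, each with similar values in both libraries. The 13 are 54.2% of the 24, with the 8 not listed counted as below 1 TPM. The 70.1% of all protein-coding genes covers listed genes only, so the 2 shares are not alike. CTAG2 (ENSG00000126890, chromosome X, positions 153880246 to 153881853, minus strand) had 401 and 418 TPM, MAGEB2 154 and 160, MAGEA6 166 and 143, and SSX1 134 and 126. MAGEA12 stood at 94.6 and 90.6, MAGEA3 at 86.8 and 93.8 (mean 145 by merged exon lengths), and PRAME at 83.9 and 82.9. The next gene, MAGEA1, had 3.86 and 1.86 TPM, so both libraries of PRAME lay above both of MAGEA1 with no gene of the list between them. MAGEA3 and MAGEA6, CTAG2 and CTAG1B, and the GAGE genes are near-identical copies, so the division of reads within each of these groups is uncertain. MAGEA4 and SSX2 were among 8 members not listed.

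All 21 genes of the RAS and ERK cascade were read at 1 TPM or more in both libraries. The same held for 11202 of all 16390 listed protein-coding genes. NRAS (ENSG00000213281, chromosome 1, positions 115247090 to 115259515, minus strand) had 2250 and 1713 counts, or 90.0 and 72.0 TPM. HRAS (ENSG00000174775, chromosome 11, positions 532242 to 537287, minus strand) had 891 and 775 counts, or 129 and 118 TPM. By the deposited lengths HRAS was 1.43-fold and 1.63-fold above NRAS, but by merged exon lengths the ratios were 0.950 and 1.09, so the order of these 2 genes depends on the length.

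The other steps of the cascade differed in level. PTPN11, the phosphatase SHP2 upstream of RAS, stood at 281 and 199 TPM, the adaptor SHC1 at 239 and 190 and the ERK kinase MAP2K2 at 239 and 189, and these 3 genes overlapped. MAP2K2 lay 2.65-fold and 2.70-fold above its sister MAP2K1, and 1.63-fold and 1.66-fold with merged exon lengths. The exchange factors SOS1 (20.04 and 16.9 TPM) and SOS2 (8.95 and 11.04) and NF1, which switches RAS off (42.6 and 34.6), were all read. Of the 21 genes, 17 were lower in DMSO 2, with a median log2 ratio of -0.24, against -0.06 over all genes with enough counts.

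Genes that ERK activity is known to induce stood at 1 TPM or more in 18 of 22 cases (81.8%, against 70.1% of all listed protein-coding genes). CCND1, cyclin D1 (ENSG00000110092, chromosome 11, positions 69455855 to 69469242, plus strand), had 24179 and 13326 counts, or 999 and 579 TPM. FOSL1, an AP-1 subunit (ENSG00000175592, chromosome 11, positions 65659520 to 65668044, minus strand), had 715 and 456 TPM, and EPHA2, an ephrin receptor, 454 and 742. The 3 genes overlapped in their libraries. JUN stood at 222 and 193 TPM and IER3 at 173 and 218. The phosphatases DUSP5 (127 and 97.7 TPM) and DUSP4 (111 and 112), the ETS factors ETV5 (73.6 and 66.3) and ETV4 (64.9 and 54.8), and the feedback inhibitors SPRY2 (53.1 and 50.5) and SPRED2 (57.6 and 61.0) were all present.

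Against these, 4 members were at the edge of detection. DUSP6, the cytoplasmic ERK phosphatase often taken as the standard reporter of the pathway (ENSG00000139318, chromosome 12, positions 89741009 to 89747048, minus strand), had 0 and 7 counts (0 and 0.298 TPM). The immediate-early genes FOS and EGR1 had 2 and 5 and 7 and 11 counts, and SPRY1 had 8 and 7. The DUSP6 paralogues DUSP4 and DUSP5 thus had 3458 and 3303 and 1830 and 1335 counts where DUSP6 had 0 and 7.

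Receptor tyrosine kinases were dominated by 1 gene. AXL, the receptor for the ligand GAS6 (ENSG00000167601, chromosome 19, positions 41725108 to 41767671, plus strand), had 1888 and 1619 TPM and held 48.6% of the summed TPM of 58 receptors. It lay 4.15-fold and 2.18-fold above EPHA2, which followed, and 23.7-fold and 18.7-fold above EGFR. MET, the receptor for hepatocyte growth factor, stood at 227 and 249 TPM, EPHB2 at 150 and 227, TIE1 at 98.3 and 156, and the collagen receptor DDR1 at 78.9 and 141. TYRO3, an AXL relative, was at 76.6 and 89.9 and EGFR at 79.6 and 86.7. With merged exon lengths EPHB2 was at 96.2 TPM and DDR1 at 68.8. In all, 29 of 58 receptors stood at 1 TPM or more (50%, against 70.1% of all listed protein-coding genes). The 50% counts 3 receptors that were not listed as below 1 TPM. No read was found for 9: PDGFRA, FLT4, INSR, INSRR, EPHA5, EPHA10, RET, NTRK2 and NTRK3.

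**Figure D3:**
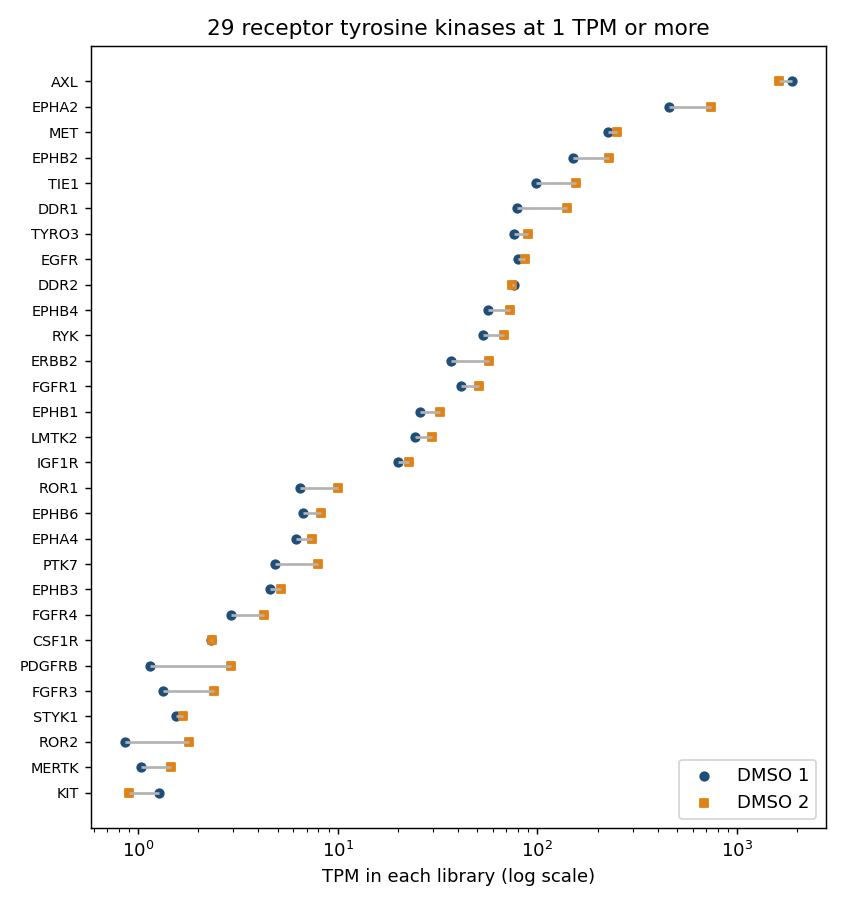
TPM in DMSO 1 (circles) and DMSO 2 (squares) on a log scale for the 29 receptor tyrosine kinases with a mean of 1 TPM or more, ordered by mean; grey lines join the libraries of a gene. AXL stands apart at 1888 and 1619 TPM, and most of the other receptors lie further right in DMSO 2.

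INSR, the insulin receptor (ENSG00000171105, chromosome 19, positions 7112266 to 7294045, minus strand), had no read in either library, while its relative IGF1R had 1331 and 1428 counts (20.1 and 22.6 TPM). A count of 0 allows up to 0.179 CPM in DMSO 1 and 0.199 CPM in DMSO 2 for INSR, by counting error only. PDGFRB, the remaining PDGF receptor, had 37 and 89 counts. Of 32 ligands of such receptors 18 stood at 1 TPM or more (56.25%, against 70.1% of all listed protein-coding genes). GAS6 stood at 118 and 175 TPM, HBEGF, a ligand of EGFR, at 93.6 and 156, VEGFC at 92.0 and 134 and PDGFC at 101 and 115. The libraries of these genes overlapped. With merged exon lengths the means were 88.4 TPM for GAS6, 136 for HBEGF, 133 for VEGFC and 111 for PDGFC, and no order is drawn from these means. PROS1, the other AXL-family ligand, was at 1.45 and 5.26 TPM, below GAS6 in both libraries. AREG, EREG, IGF2, FGF7, FGF18 and PDGFD had no read, and HGF, the MET ligand, was not listed.

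Of 20 genes of PI3K, AKT and mTOR signalling 19 stood at 1 TPM or more (95%, against 70.1% of all listed protein-coding genes). EIF4EBP1, the translation repressor that mTOR phosphorylates, led at 409 and 343 TPM, and AKT2 stood at 154 and 127. AKT2 exceeded AKT1 2.44-fold and 2.42-fold, but only 1.145-fold and 1.135-fold with merged exon lengths. The only gene of that list under 1 TPM was PIK3R2, a regulatory subunit, with 4 and 2 counts beside 848 and 566 for PIK3R1.

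Of 21 genes of cyclin D, CDK4 and CDK6 and RB, through which palbociclib acts, 18 stood at 1 TPM or more. This was 85.7%, against 70.1% of all listed protein-coding genes. CCND1 was 11.7-fold and 7.47-fold above CCND3, and 25.2-fold and 16.2-fold with merged exon lengths. CCND2 had no read. CDK4 stood at 259 and 191 TPM, 3.44-fold and 3.65-fold above CDK6. RB1, the substrate of these kinases, was at 57.5 and 53.2 TPM. CDKN1A, p21, was high at 410 and 381 TPM, whereas CDKN2A and CDKN2B, which encode the CDK4 inhibitors p16 and p15, were not listed in either table. The related inhibitor CDKN2C was read at 53.6 and 41.4 TPM. Of 18 genes of this list with a ratio, 17 were lower in DMSO 2. Their median log2 ratio was -0.25, against -0.06 over all genes with enough counts.

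Reads were also few for a neighbour of CDKN2A. MTAP, an enzyme of methionine salvage (ENSG00000099810, chromosome 9, positions 21802542 to 21932738, plus strand), had 3 and 1 counts. On 1 side KLHL9, a ubiquitin ligase adaptor 470 kb from the MTAP start, had 1317 and 1039 counts, FOCAD 1568 and 1121, and MLLT3 305 and 253. On the side of CDKN2A, the antisense gene CDKN2B-AS1 had 20 and 54 counts, DMRTA1 17 and 18, and ELAVL2 11 and 23. Between KLHL9 and MTAP, the non-coding MIR31HG had 44 counts in each library, and its neighbour IFNE 17 and 5. Every counted DMSO read lies in a listed gene, because the deposited FPKM values follow from the counts, the gene lengths and the summed totals of the listed genes to within a relative difference of 8.66e-08, so an unlisted gene had no counted DMSO read. Genes of the interferon cluster between KLHL9 and MTAP, silent in most unstimulated cells, were largely not listed. Whether the DNA of this stretch was present was not tested.

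**Figure D4:**
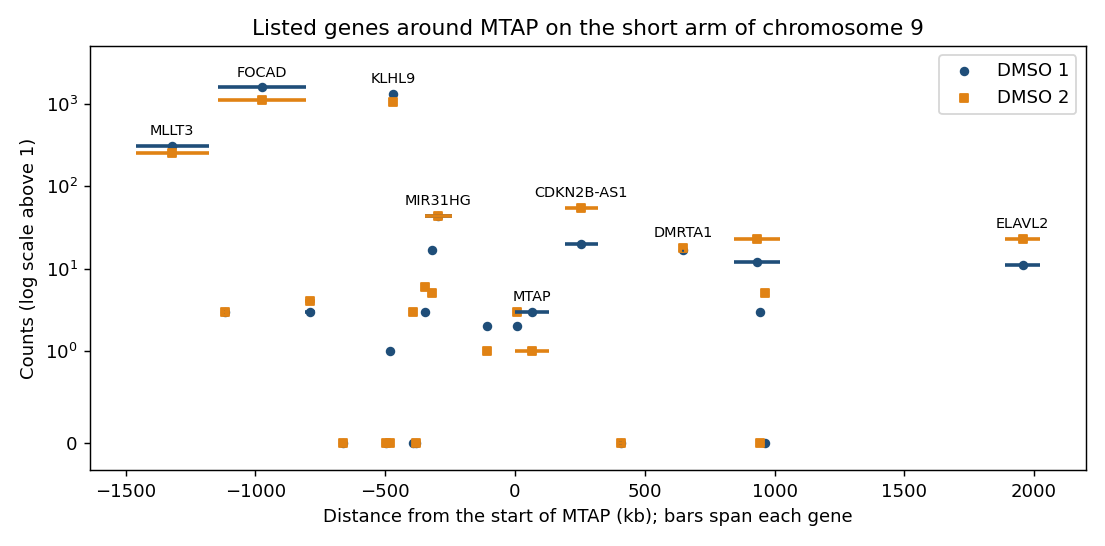
Counts in DMSO 1 (circles) and DMSO 2 (squares), on a scale that is logarithmic above 1, for listed genes at their distance from the start of MTAP in kb; bars span each gene. KLHL9, FOCAD and MLLT3 on the left have 253 to 1568 counts, MTAP has 3 and 1, and no gene to the right of MTAP exceeds 54.

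Sequences before 1 RefSeq start each of MTAP and CDKN2A are shown because both genes were at or under the floor of 3 counts. They cover the 100 bases before the RefSeq start on GRCh38.p14, at chr9:21802536-21802635 on the plus strand and chr9:21995325-21995424 on the minus strand, with the same motifs in capitals.
MTAP: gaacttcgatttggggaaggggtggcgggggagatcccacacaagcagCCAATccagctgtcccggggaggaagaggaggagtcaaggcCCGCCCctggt
CDKN2A: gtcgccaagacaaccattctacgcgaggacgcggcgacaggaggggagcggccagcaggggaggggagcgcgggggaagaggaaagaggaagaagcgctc
MTAP held 1 match to CCAAT and 1 to GGGCGG read on the other strand, and CDKN2A held none in this window. Which CDKN2A transcript begins at this start was not examined, so the window need not be the promoter of p16. The 300-base windows held 15 and 28 CpG, against a median of 14 over all promoters. These are reference letters, and the sequence of HT-1080 at these sites was not analysed here.

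Regulators of cell death were also read. The death receptor TNFRSF10B stood at 330 and 576 TPM and BAX, a pore-forming protein of mitochondria, at 386 and 406. MDM2, a ubiquitin ligase, stood at 126 and 93.0. Among 22 apoptosis regulators the highest was MCL1, a survival protein, at 523 and 426 TPM. BCL2L1 stood at 252 and 149 TPM and BCL2 at 9.78 and 6.27, so that BCL2L1 was 25.8-fold and 23.7-fold higher.

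MYC (ENSG00000136997, chromosome 8, positions 128747680 to 128753674, plus strand) was at 26.7 and 22.9 TPM and its partner MAX at 47.4 and 41.2. MYCN was not listed, and MYCL1 had 4 and 7 counts. TERT, the catalytic subunit of telomerase (ENSG00000164362, chromosome 5, positions 1253262 to 1295184, minus strand), was read at 12.4 and 20.5 TPM, from 279 and 441 counts. DKC1, the dyskerin subunit of the telomerase complex, was at 186 and 138, and ATRX and DAXX, a chromatin remodeller and its partner, were at 35.4 and 29.2 and at 172 and 136. IDH1 (ENSG00000138413, chromosome 2, positions 209100951 to 209130798, minus strand) had 1132 and 1111 counts, or 82.6 and 85.1 TPM. IDH1 exceeded the mitochondrial IDH2 4.21-fold and 6.01-fold, and 2.27-fold and 3.25-fold with merged exon lengths.

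Of 25 tumour suppressor genes 21 stood at 1 TPM or more (84%, against 70.1% of all listed protein-coding genes). Each of the 21 was at 10 TPM or above. NF2 had 251 and 153 TPM, SMARCA4 234 and 151, and SMARCB1 161 and 129. With merged exon lengths SMARCB1 fell to 20.95 TPM and SMARCA4 to 97.9. The 4 others were CDKN2A and CDKN2B, not listed, MTAP at 3 and 1 counts and CDH1 without a read. All 21 read members were lower in DMSO 2 than in DMSO 1. Their median log2 ratio was -0.26, against -0.06 over all genes with enough counts, where lower in DMSO 2 was also the more common direction.

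The developmental signalling pathways were each present in part. In the Wnt list 21 of 27 members stood at 1 TPM or more (77.8%, against 70.1% of all listed protein-coding genes). CTNNB1, beta-catenin, led that list at 718 and 473 TPM (258 TPM on average with merged exon lengths). Its feedback target AXIN2 was at 0.585 and 1.71 TPM, and LGR5 had no read. NOTCH2 held 59.7% of the summed TPM of the Notch list, at 242 and 301 TPM, and was 5.86-fold and 6.37-fold above NOTCH1. NOTCH3 (chromosome 19, positions 15270444 to 15311792) had no read. All 17 genes of the Hippo list stood at 1 TPM or more, against 70.1% of all listed protein-coding genes. The YAP targets CYR61 (320 and 525 TPM) and CTGF (127 and 211) were higher in DMSO 2. ANKRD1, a muscle ankyrin repeat protein and another YAP target, had 599 and 234 counts and was higher in DMSO 1, with 1 of the 5 lowest ratios among genes with 100 or more counts in each library.

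In the TGF-beta list 22 of 23 genes stood at 1 TPM or more (95.7%, against 70.1% of all listed protein-coding genes). Among them was the ligand TGFB1 at 302 and 474 TPM. TGFB1 was 36.8-fold and 31.8-fold above TGFB2. SMO, SUFU, GLI2 and GLI3 of the Hedgehog pathway were at 10 TPM or more, the transcriptional target GLI1 at 0.690 and 0.570, and the ligands SHH and IHH had no read. Of 24 NF-kB and JAK-STAT genes 19 stood at 1 TPM or more (79.2%, against 70.1% of all listed protein-coding genes). IL6ST, the shared receptor chain of the IL-6 family, was at 84.7 and 117 TPM. The cytokine LIF was at 56.5 and 104 TPM and IL8 at 67.0 and 88.5. The cytokines IL6 and CXCL1 had no read.

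Proteases and adhesion receptors of invasion were prominent, and of the 43 lists they had the highest median ratio of DMSO 2 over DMSO 1. MMP14, the membrane-anchored matrix metalloprotease that cleaves collagen (ENSG00000157227, chromosome 14, positions 23305766 to 23318236, plus strand), had 13848 and 31018 counts, or 661 and 1555 TPM. PLAU, the urokinase plasminogen activator, stood at 313 and 771 TPM and its receptor PLAUR at 135 and 238. CTSB, a cathepsin, was at 178 and 395, BSG, an inducer of matrix proteases, at 233 and 527, and ADAM9 at 217 and 363. MMP14 exceeded MMP2 21.9-fold and 21.8-fold, so this ratio was stable although each gene was more than 2-fold higher in DMSO 2. MMP7 had no read, and MMP9 had 4 and 21 counts. Of 23 members at 1 TPM or more, 22 were higher in DMSO 2, with a median log2 ratio of 0.89, against -0.06 over all genes with enough counts.

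Integrins shared this pattern. ITGA3, a laminin receptor chain (ENSG00000005884, chromosome 17, positions 48133332 to 48167845, plus strand), had 1036 and 1466 TPM, ITGA6 807 and 956, and ITGB1, the common beta chain, 587 and 1016. With merged exon lengths the ratio of ITGA3 over ITGA6 was 0.791 and 0.945, so the order of these laminin chains depends on the length. ITGA2, ITGA5 and ITGB5 stood at 349 and 513, at 243 and 416, and at 185 and 348 TPM. Of 14 integrins at 1 TPM or more 13 were higher in DMSO 2, with a median log2 ratio of 0.87, against -0.06 over all genes with enough counts. ITGAL, ITGAD and ITGAM, chains of leukocytes, had no read.

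The contrast between the libraries ran through whole lists. The median log2 ratio of DMSO 2 over DMSO 1 was -0.06 over all 13035 genes with enough counts, with 5% of genes below -0.62 and 5% above 1.003. It was 0.89 for invasion proteases, 0.87 for integrins, 0.71 for antigen presentation and 0.52 for TGF-beta and BMP genes. It was -0.26 for tumour suppressors and for telomere and IDH enzymes and -0.25 for the cyclin D list. The share of mitochondrial counts was also higher in DMSO 2, as given above, and its part in these differences was not tested. Among genes with 100 or more counts in each library, the 5 highest ratios were those of TMED7, CD58, GAA, ITGA10 and GRN, which encode a cargo receptor of the secretory pathway, a cell adhesion molecule, a lysosomal enzyme, an integrin chain and a secreted protein. TMED7 had 555 and 2072 counts and GRN 690 and 1877. The 5 lowest were BCYRN1, a small non-coding RNA, with 1703 and 236 counts, RNA28S5, ANKRD1, a non-coding clone gene and RAB3B, a vesicle GTPase with 5438 and 2170 counts.

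Cadherins were few. CDH2, N-cadherin, was the highest of 23 at 78.7 and 107 TPM, above CDH13 at 46.8 and 69.3, CDH24 at 40.1 and 54.1, CDH11 at 17.9 and 22.8 and CDH4 at 4.46 and 4.68. The other 18 were under 1 TPM, and 10 of these, CDH1 among them, had no read. With merged exon lengths CDH13 was at 28.6 TPM. Intermediate filaments included keratins beside VIM. LMNA, of the nuclear lamina, stood at 1290 and 981 TPM (717 on average with merged exon lengths), and KRT81, a keratin known from hair, at 711 and 788 TPM. KRT81 lay above KRT8 and KRT18 in both libraries. NEFL, the light neurofilament chain, was read at 63.3 and 62.8 TPM, and DES, KRT14, KRT17 and PRPH had no read.

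Genes of ferroptosis, for which HT-1080 is a standard model, were nearly all read. Of these 29 genes 26 stood at 1 TPM or more (89.7%, against 70.1% of all listed protein-coding genes). Iron storage genes were among the highest of the table, with FTL at 4115 ± 12.6 TPM and FTH1, the ferritin heavy chain, at 1239 and 1197. TFRC, the transferrin receptor that imports iron, stood at 829 and 1116. GPX4, the peroxidase that reduces lipid peroxides, was at 83.4 and 128 TPM. ACSL4, which activates polyunsaturated fatty acids, was at 121 and 86.8 TPM, and AIFM2, the quinone reductase FSP1, at 39.2 and 31.0. SLC7A11, the cystine importer, was at 31.0 and 32.5 TPM, below its partner SLC3A2 at 162 and 224, whose mean was 123 by merged exon lengths. ALOX5 and ALOX15, lipoxygenases of lipid peroxidation, had no read, and SLC40A1, the iron exporter, had 2 and 8 counts.

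Class I antigen presentation was uneven. B2M, the light chain shared by class I molecules (ENSG00000166710, chromosome 15, positions 45003675 to 45011075, plus strand), had 1321 and 3443 counts, or 101 and 277 TPM, with a mean of 99.1 TPM by merged exon lengths. The non-classical HLA-E stood at 121 and 169 TPM and the peptide loading protein TAPBP at 124 and 186. Among the classical heavy chains, levels were lower, with HLA-C at 4.83 and 10.9 TPM (51 and 110 counts) and HLA-B at 1.15 and 7.62 TPM (10 and 63 counts). HLA genes are highly polymorphic and resemble each other, so their counts are uncertain. All of these were higher in DMSO 2.

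HOX genes, which record the position of a cell along the body axis, were read from all 4 clusters. In each cluster the member of group 9 had the highest mean TPM by the deposited lengths. HOXB9 (ENSG00000170689, chromosome 17, positions 46698518 to 46703839, minus strand) was the highest of all at 65.2 and 51.5 TPM, 4.05-fold and 2.45-fold above HOXA9, and 6.25-fold and 3.78-fold with merged exon lengths. HOXA9 stood at 16.1 and 20.98 TPM, HOXC9 at 18.8 and 17.0 and HOXD9 at 12.4 and 12.998. HOXD9, at a mean of 22.7 by merged exon lengths, overlapped HOXD8 in its libraries. HOXB7 followed in its cluster at 35.3 and 27.0 TPM, but with merged exon lengths the mean of HOXB7 was 111 TPM and that of HOXB9 84.5. At 1 TPM or more were 8 of 11 HOXA genes (72.7%), 8 of 10 HOXB genes (80%) and 7 of 9 HOXC genes (77.8%). In the HOXD cluster 5 of 9 genes (55.6%) were, and the share of all listed protein-coding genes was 70.1%. HOXA11, HOXC11 and HOXD12 had at most 3 counts in a library, while HOXC13 reached 12.2 and 11.3 TPM and HOXD11 9.64 and 9.94. Overlap between neighbouring HOX genes on the same or the opposite strand can shift reads among them.

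**Figure D5:**
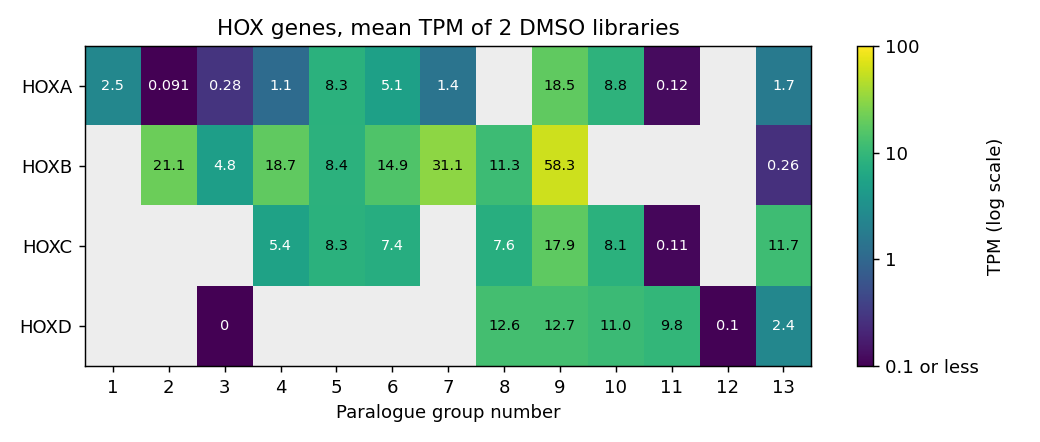
Mean TPM over 2 DMSO libraries of the listed genes in the 4 HOX clusters (rows) by paralogue group (columns), printed in each cell and coloured on a log scale; grey cells hold no listed gene. Group 9 is the highest cell of each row, from 12.7 in HOXD to 58.3 in HOXB, and the HOXB row is read from group 2 to group 9.

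Among 35 limb and regional transcription factors, PITX1, a factor of the hindlimb, stood at 84.1 and 62.7 TPM, and MSX1, of limb and face, stood at 71.1 and 59.8. The pair overlapped in their libraries. TBX3 was at 33.0 and 36.0 TPM, FOXF2 at 37.4 and 27.3, FOXC1 at 34.2 and 27.7 and SIX2 at 21.8 and 23.1. TBX4, the hindlimb T-box factor, and EN1 had no read, and TBX5, its forelimb relative, was not listed. In all 22 of the 35 stood at 1 TPM or more (62.9%, against 70.1% of all listed protein-coding genes). The 62.9% counts 4 members that were not listed as below 1 TPM.

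Genes without reads made up a sizeable share of the tables. Of 26286 listed genes, 16923 were read in both DMSO libraries, 4215 in 1 of them and 5148 in none. Of the 5148, 1905 were protein-coding (11.6% of the listed protein-coding genes), and 1358 were pseudogenes (34.5% of those listed). A listed gene without a DMSO read is in the tables because a drug-treated library had reads of it. In those 4 libraries 4597 of the 5148 (89.3%) had at most 10 counts summed over the 4. Genes without a read overlapped another listed gene with DMSO reads less often than other genes did, at 22.9% against 44.7% of protein-coding genes. How HTSeq was set to treat reads in overlaps is not stated by any source used here.

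Zinc finger genes of chromosome 19 were often without reads. Of 245 listed on that chromosome, 71 (28.98%) had no DMSO read, against 18 of 269 (6.69%) elsewhere and 128 of 930 (13.8%) of the other protein-coding genes of chromosome 19. Most of these genes encode KRAB zinc finger repressors, many of which bind transposable elements. Some of the unread genes lay in runs of listed neighbours, with genes not listed left out of the order. ZNF253, ZNF93, ZNF90, ZNF486, ZNF737, ZNF626, ZNF66 and ZNF85, 8 successive listed protein-coding genes between positions 19976695 and 21133503, had no read in either library. A further 8 such genes, from ZNF43 to ZNF724P between 21987752 and 23433192, had none, and 2 runs of 6 lay at 12035890 to 12267546 and at 37902057 to 38183238. These genes resemble each other, so reads that fit several of them could have been left uncounted, which was not tested.

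The promoters of ZNF93 and ZNF43, from both long runs, are shown because the genes lie about 2 Mb apart and are alike in this window. They cover the 100 bases before the RefSeq start on GRCh38.p14, at chr19:19900846-19900945 on the plus strand and chr19:21836183-21836282 on the minus strand, with the same motifs in capitals.
ZNF93: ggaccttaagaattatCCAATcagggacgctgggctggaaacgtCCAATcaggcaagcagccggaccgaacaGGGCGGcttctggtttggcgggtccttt
ZNF43: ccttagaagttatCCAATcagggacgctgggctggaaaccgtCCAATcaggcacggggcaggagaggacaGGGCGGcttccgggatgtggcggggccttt
Each held 2 matches to CCAAT and 1 to GGGCGG on its own strand, in the same order. CCAAT on either strand was found in the 300-base windows of 64.3% of the chromosome 19 zinc finger genes without a read (56 of 69 had a promoter in the table) and 48.1% of those with a read (154 of 174), against 35.7% of all promoters. GGGCGG on either strand was found in 83.9% and 59.1%, against 44.6% of all. The median number of CpG was 16 in the first set, 22 in the second and 14 over all.

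The clustered protocadherins, neuronal adhesion proteins made from tandem arrays on chromosome 5, were split by array. No read was found for 13 of 14 alpha genes and 10 of 15 beta genes, while all 21 gamma genes had a read. The longest run among listed genes, 17 neighbouring listed protein-coding genes from PCDHA2 to PCDHB4 between positions 140174444 and 140505201, fell here. PCDHGC3, of the gamma array, had 1873 and 3107 counts, and the next, PCDHGB7, had 72 and 144. Genes within the alpha array share their last exons, and so do those of the gamma array. The counts of both arrays thus depend on how shared exons were treated. All 13 unread alpha genes overlapped a listed gene with a read, but PCDHA1, the alpha gene with a read, had 0 and 1 counts. The 21 gamma genes, all of them read, also overlapped listed genes with a read in 100% of cases. Of 43 listed olfactory receptors, 21 (48.8%) had no read, against 11.6% of all listed protein-coding genes. Receptors not listed are outside the 43, so this is no share of all olfactory receptors. Of the receptors with a read, 63.6% overlapped another listed gene with a read, against 44.7% of protein-coding genes with a read.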

How the data were processed

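Bulk RNA-seq counts of 2 DMSO libraries of HT-1080 cells were taken from 2 tables, of 23914 and 24931 genes, that the authors deposited for their drug comparisons. Joined on gene ID they list 26286 genes, 22559 of them in both tables with identical DMSO counts, and the 3727 in 1 table only had no DMSO read. The counts are whole reads per gene as deposited, and per the submitters' processing notes CASAVA, STAR 2.5, HTSeq 0.6.1 and DESeq2 were used, with hg19/GRCh37. Strand and multi-mapping settings of the counting are not known here, so reads of overlapping or antisense genes, and of near-identical copies, cannot be told apart. The FPKM values were made by the authors from those counts, and per the file headers the gene length and position of each gene come with them. How the authors defined gene length is not stated.

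From the counts, CPM (count over library total) and TPM (count over deposited length, scaled) were computed in Python 3.11.15 with pandas 2.3.3 and numpy 2.4.6, and drawn with matplotlib 3.10.9. TMM factors from edgeR 4.0.16 in R 4.3.3 served as an alternative scaling. No group was tested against another, and the value of each gene is a mean ± SD over 2 libraries. Depth was 16753274 and 15051223 counts. Floors cover counting error only, and PCR copies were not removed by molecular identifiers. By the rule, the genes named are the 20 highest on each scale, the 6 highest and the defining members of 43 lists, their members without reads where these were few, a fixed set of oncogenes and suppressors, the 5 highest and 5 lowest ratios between libraries, and the longest runs of unread neighbours. Other list members, pairs of genes and the collagens outside the lists were named after their values were seen. The members and lists were chosen with earlier results of these data known. Medians of a list count members not listed as 0, and shares of a list count them as below 1 TPM. Shares and medians over all protein-coding genes cover listed genes only. Merged exon lengths of GENCODE v29, and a limit of 100 counts for the spread between libraries, were chosen after seeing the data. The scripts were tested on simulated data. The number of per-sample columns without a sample was 0. Counts of the 4 drug-treated libraries were used only to describe genes without a DMSO read. Results for some genes are not reported here.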

Additional observations from a re-analysis of the deposited data

How the results depend on the processing

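The share of counts in the 50 highest genes by CPM averaged 14.3% and was 11.9% without mitochondrially encoded genes. Genes without reads numbered 5148, and 7968 or 11183 when genes with fewer than 3 or fewer than 10 counts over both libraries were included. With 1 library left out the number of genes without reads ranged from 6444 to 8067. At 1 FPKM of the authors in place of 1 TPM, members at or above the limit numbered 2 for epithelial, 3 for leukocyte, 1 for skeletal muscle, 0 for adipocyte, 1 for neural and glial, 1 for melanocyte, 7 for cancer-testis antigen, 3 for chromosome 9p21 and 4 for HOXA genes. FPKM is lower than TPM by a factor of 2.98 in DMSO 1 and 2.82 in DMSO 2, so its limit is the stricter. TMM scaling moved the CPM of 270 named genes by at most 1.84%. Merged exon lengths of GENCODE v29 moved 42 of them by more than 1.5 times, and the cause was not tested. No paired analysis was possible because no result comes from a test. Depth limits genes near the floor of 3 counts, where a listed zero allows up to 0.199 CPM.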

Other observations

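Of the 5148 genes without a DMSO read, 13 had 100 or more counts summed over the 4 drug-treated libraries. IGFBP3, a carrier of insulin-like growth factors, had 0 and 649 counts in the palbociclib libraries and 1 and 3 in the pimasertib libraries. CDH6, a cadherin, had 0 and 127 and then 6 and 0, ADAMTS5, an aggrecan-cleaving protease, 0 and 100 and then 0 and 0, and CYBA, a subunit of NADPH oxidase, 0 and 102 and then 0 and 2. These 4 genes had most of their reads in palbociclib library 2 alone. WISP2, a secreted matricellular protein, had 0 and 3 counts with palbociclib and 220 and 298 with pimasertib, and NTRK3, a neurotrophin receptor, 2 and 4 and then 65 and 63. Those 2 genes had reads in both pimasertib libraries. They were picked for these counts, and no test was made.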
